A study of Mus musculus with 16 samples.

Results

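The genes described here are 44 that copy DNA or supply its building blocks, followed through 4 conditions of mouse neural progenitor cells. They were taken by symbol from a list of licensing, helicase, polymerase and deoxynucleotide genes drawn up with earlier results of these data known, and were ordered into 9 steps of replication. All 44 were found among 49166 genes of the series, and all 44 were among the 16971 genes with enough counts to be tested. RNA came from 16 cultures of progenitors (NPCs, grown with FGF-2 and EGF) from the cortex of mouse embryos at E18.5, late in gestation. The study asked how androgen signalling acts on NPCs that lack Chd1, a chromatin remodeller.

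There were 4 groups of 4 libraries, numbered 1 to 4 in each. The wild-type group (WT) received a control lentivirus with Cas9 and then DMSO, the solvent. The remaining groups were Chd1 knockout NPCs (KO), made with a lentivirus carrying Cas9 and a guide RNA against Chd1, and they were given DMSO, 10 nM dihydrotestosterone (DHT, an androgen) for 24 h, or the same DHT after 30 min with 10 µM of the androgen receptor blocker enzalutamide (ENZ in the plots). All groups thus carried Cas9 and had been selected with puromycin for 48 h and expanded. The KO cells were transduced cultures, not described as clones. The labels call the numbers biological replicates from embryos of separate litters, and do not say which number came from which litter. Wild-type cells given DHT and cells given enzalutamide without DHT were not analysed here, so the effect of the antagonist on its own cannot be told apart from its effect in the presence of DHT. Each comparison shares a group with another.

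Replication begins with licensing, in which the origin recognition complex, Cdc6 and Cdt1 load the MCM2-7 ring onto DNA before S phase. Mcm10, Cdc45 and the GINS proteins then turn that ring into the active helicase, and polymerase alpha with primase starts chains that polymerases delta and epsilon extend, held by the Pcna clamp. Most of these genes are transcribed in the late G1 and S phases under E2F factors, so in a dividing progenitor culture their RNA rises and falls with the share of cells that are cycling. In bulk RNA, fewer cells in S phase and less of these RNAs in each cell cannot be told apart.

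E2F factors bind a short core beside the start of many replication genes, and since the members moved together the promoters are shown before their values. RefSeq promoter windows (GRCm38.p6, 250 bases before to 50 bases after the start) were listed for 35 of the 44 genes, in 40 windows. The E2F core was searched on both strands as TTCCCGC and as that word with CG, with GC or with GG as the third and the fourth letters. It occurred in 23 of the 35 genes (65.7%), against 10.9% of 27025 genes with a listed window. In 2 further lists described below, it occurred in 47.6% of 42 other replication genes and 15.8% of 19 genes of G2 and mitosis. In the member windows the matches formed 36 separate stretches, of which 25 began within 60 bases of the start. The windows end 50 bases after the start, and positions were not measured over all windows, so this count has no background. The box CCAAT on either strand, which the factor NF-Y binds, occurred in 62.9% of the member genes against 41.1% of all. In the 2 further lists it occurred in 47.6% and 84.2%. The word TTTGAA on either strand, found in promoters of late cell cycle genes, occurred in 14.3% of the member genes against 20.2% of all. Member windows were also richer in G and C than all windows, at a median of 57.8% against 52.7%, and this was not adjusted for. A matching word is a description of the sequence and not evidence of binding. The upstream parts of 5 windows follow, from 250 to 51 bases before the start, 5′ to 3′ in the direction of transcription, with E2F words in capitals. They were chosen after the matches were seen, to show a gene with 3 stretches in this part (Pola1), genes of licensing and nucleotide supply with 1 (Cdc6, Rrm1, Rrm2) and a gene whose window holds none (Cdc45).
Pola1 (chrX:93632206-93632405, minus strand): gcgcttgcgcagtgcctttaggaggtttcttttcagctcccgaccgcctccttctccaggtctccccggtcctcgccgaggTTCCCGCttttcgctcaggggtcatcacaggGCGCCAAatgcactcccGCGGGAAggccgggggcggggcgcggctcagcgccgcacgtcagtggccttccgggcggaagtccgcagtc
Rrm1 (chr7:102441445-102441644, plus strand): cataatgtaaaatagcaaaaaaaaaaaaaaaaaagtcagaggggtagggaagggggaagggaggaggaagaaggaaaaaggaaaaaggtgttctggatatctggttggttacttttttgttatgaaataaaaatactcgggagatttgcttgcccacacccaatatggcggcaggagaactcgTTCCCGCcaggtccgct
Cdc6 (chr11:98907901-98908100, plus strand): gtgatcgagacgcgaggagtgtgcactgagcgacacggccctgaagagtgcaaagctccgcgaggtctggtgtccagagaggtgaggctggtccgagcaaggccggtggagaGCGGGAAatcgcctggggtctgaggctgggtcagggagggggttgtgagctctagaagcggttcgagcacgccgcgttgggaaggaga
Rrm2 (chr12:24708004-24708203, plus strand): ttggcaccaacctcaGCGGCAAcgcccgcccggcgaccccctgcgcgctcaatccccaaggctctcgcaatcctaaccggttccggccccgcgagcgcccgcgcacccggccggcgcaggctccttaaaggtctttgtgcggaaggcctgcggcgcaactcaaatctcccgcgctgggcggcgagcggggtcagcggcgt
Cdc45 (chr16:18812023-18812222, minus strand): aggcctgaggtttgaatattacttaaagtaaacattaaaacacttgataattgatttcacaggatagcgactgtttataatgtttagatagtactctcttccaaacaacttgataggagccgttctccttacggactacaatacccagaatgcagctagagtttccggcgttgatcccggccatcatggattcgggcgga

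The libraries held 31.8 to 36.9 M estimated counts (M, mega), except WT library 1 with 20.2 M. Markers matched the labelled cell type: Nes had a median of 573 TPM over the libraries and Sox2 162 TPM, the summed level of 8 progenitor markers was 5900 to 7932 TPM, and 7 of the 8 had a mean above 1 TPM. TPM is the deposited abundance per transcript length, scaled to a fixed library sum. Hes5 was the exception, at a median of 0.85 TPM. Olig2, which oligodendrocyte precursors also express, was at 483 TPM, while their defining marker Sox10 was listed at a median of 0. Neuronal markers summed to 32.2 to 55.7 TPM, mostly Tubb3. Chd1 RNA was 66.7 ± 5.73 CPM (normalised counts, scaled to a fixed library sum) in WT and 67.3 ± 2.68 CPM in KO cells with DMSO (SD, n = 4), so the RNA level did not check the genotype labels, and edits of the gene were not read here.

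Set per transcript length, the levels of the members spanned about 2 orders of magnitude. Pcna, the sliding clamp that holds polymerases on DNA, was the highest, at a median of 368 TPM over the 16 libraries and a range of 277 to 459 TPM. Rrm2, the small subunit of ribonucleotide reductase, followed at 175 TPM, and Rpa1, the large subunit of the single-strand binding complex, at 146 TPM. The medians of the ring subunits ran from 63.0 TPM for Mcm4 to 129 TPM for Mcm7. The ranges of these 2 did not overlap, at 47.5 to 75.3 TPM for Mcm4 and 87.1 to 153 TPM for Mcm7. At the low end stood Orc1, the largest origin recognition subunit, at 3.86 TPM (2.71 to 5.22), the GINS subunit Gins3 at 8.01 TPM (6.50 to 8.80) and the MCM loader Cdc6 at 13.8 TPM (8.79 to 18.7).

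**Figure D1:**
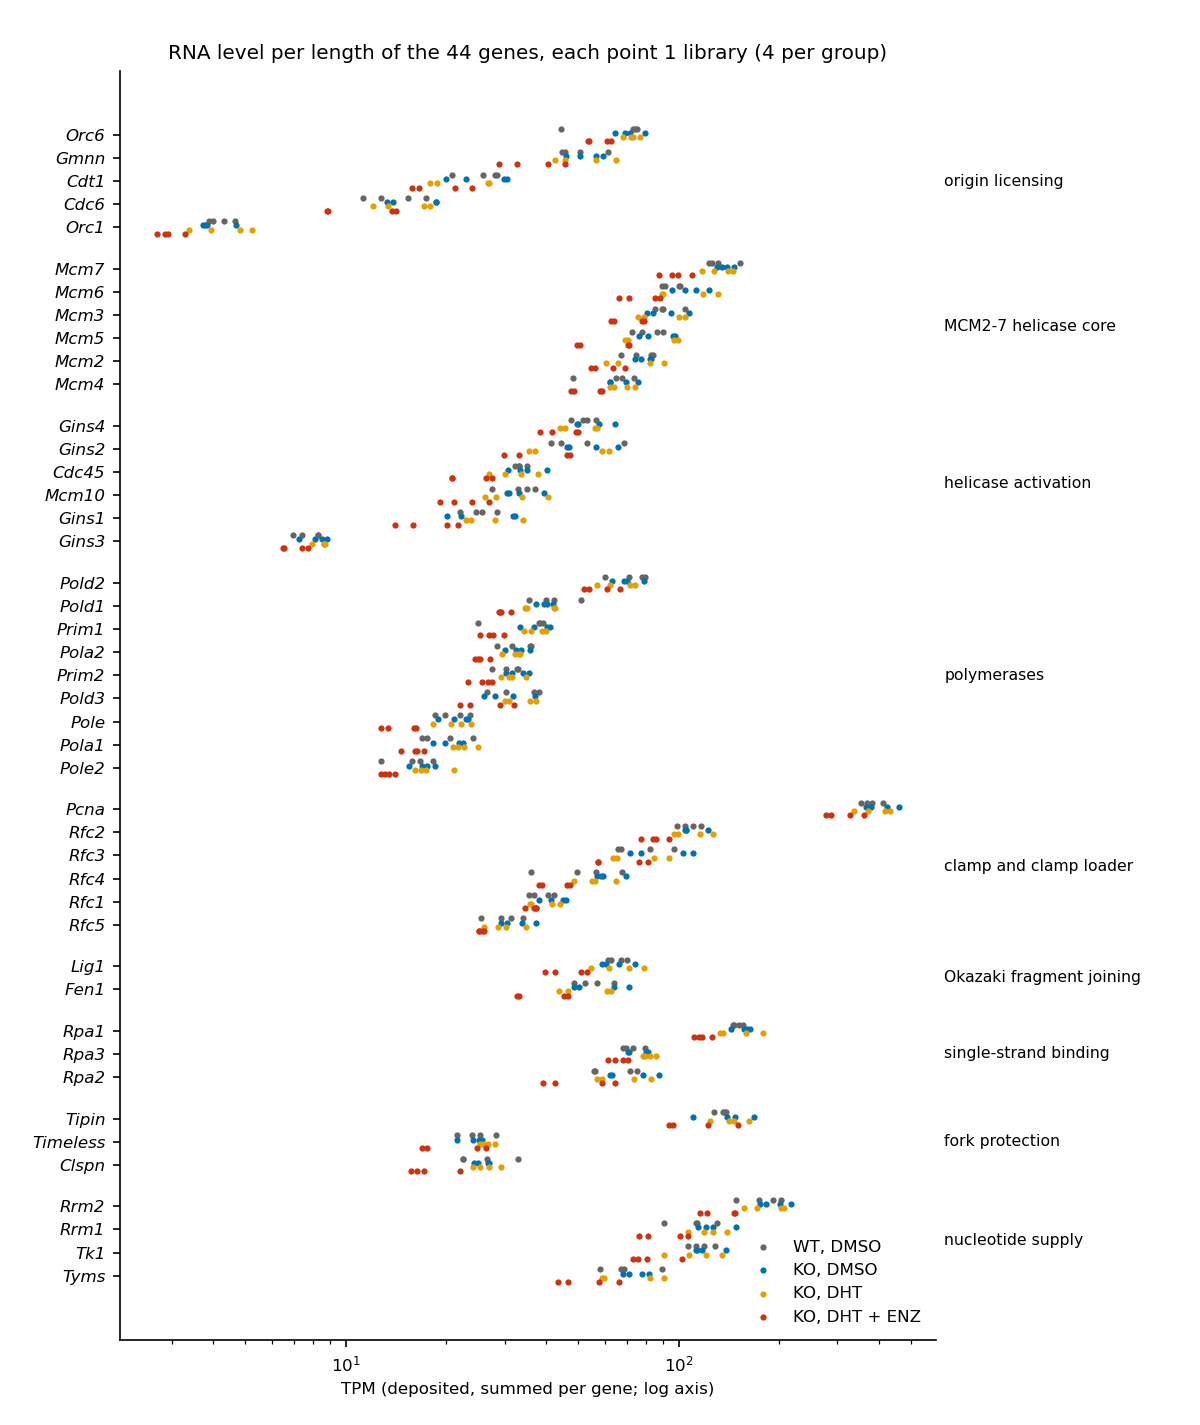
Deposited TPM summed per gene (log axis) for the 44 genes, grouped by step, with 1 point per library and 4 libraries in each of the 4 groups. Pcna is the highest at a median of 368 TPM and Orc1 the lowest at 3.86 TPM, and the points of the DHT plus enzalutamide group sit toward the low side in most rows.

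The members varied together with the replicate number. Libraries numbered 2 and 3 lay above their group's mean in every group and libraries numbered 1 and 4 below it, by the median over the 44 genes. For number 3 the median deviation was 0.27, 0.27, 0.28 and 0.30 on the log2 scale in WT, then in KO with DMSO, with DHT and with DHT plus enzalutamide. For number 4 it was -0.19, -0.21, -0.28 and -0.26 in the same order. For number 2 it was 0.08, 0.14, 0.20 and 0.25, and for number 1 it was -0.11, -0.19, -0.19 and -0.27. Over all genes tested, the median deviation of these libraries ran from -0.01 to 0.02.

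Genes differed in how much of this they shared. The SD within groups was 0.28 on the log2 scale for the median member, and 0.11 once the replicate number was taken into account. Pola1, the catalytic subunit of polymerase alpha, varied least within groups, with an SD of 0.09, followed by the clamp loader subunit Rfc1 at 0.09, the polymerase delta subunit Pold3 at 0.12 and the single-strand binding subunit Rpa3 at 0.12. Rpa2 varied most at 0.42, followed by the licensing factor Cdt1 at 0.41. For Rpa2 the SD dropped to 0.09 after the replicate number, and for Pola1 it was 0.09 either way. Each result is given without and with the number as a block (a term in the model that compares libraries of the same number).

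**Figure D2:**
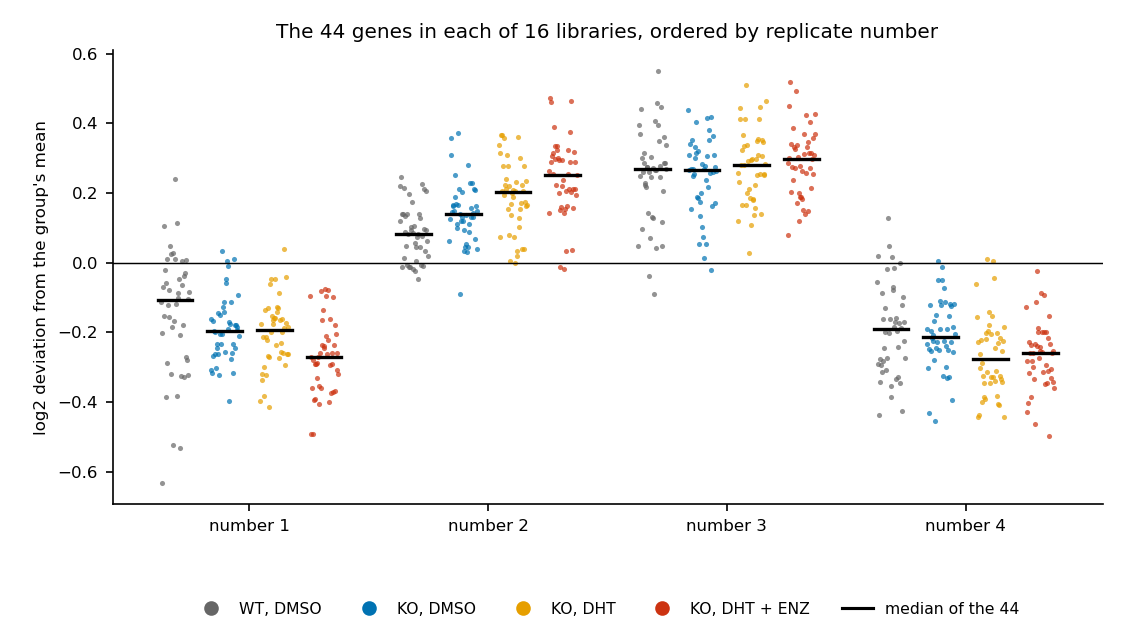
Deviation of each of the 44 genes from its group's mean (log2 CPM, vertical axis) in the 16 libraries, ordered by replicate number and coloured by group, with a black bar at the median. Medians of numbers 2 and 3 lie between 0.08 and 0.30 and those of numbers 1 and 4 between -0.28 and -0.11.

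The comparison of KO cells given DHT with enzalutamide against KO cells given DHT asked what the antagonist did in the presence of the androgen. All 44 members had lower means with enzalutamide, by a median of -0.27 on the log2 scale, and 40 of the 44 were lower in 4 of 4 same-number pairs, where 14.2% of all genes tested were. The median over all genes tested was 0.00 (8609 of 16971 negative). With edgeR's quasi-likelihood test and Benjamini-Hochberg adjustment over all genes, 1 member fell, Pola1, against a background of 0.189% of genes called lower. With the replicate number as a block, 18 of 44 fell and none rose, against a background of 1.92% of genes called lower. The groups did not overlap for 2 members, Pola1 and Pole, against 2.97% of genes. The changes were small, from Gins2 at -0.04 to Clspn at -0.51 on the log2 scale.

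These counts depended on single libraries. Pola1 kept its call when WT library 1 or WT library 4 was left out and lost it when any other library was (adjusted p 0.054 to 0.19), and its log2 fold change stayed between -0.44 and -0.37. The 18 calls with the block became 32 without WT library 1. They became 11, 9 and 8 without KO DHT library 1, 2 or 3, and 9, 10 and 7 without the enzalutamide library 1, 3 or 4. Leaving out all libraries of a number gave 20 for number 1, 6 for number 2, 1 for number 3 and 1 for number 4. Calls over all genes moved as well, from 325 lower with the block to 700 without WT library 1. Genes called lower numbered 198, 147 and 132 without KO DHT library 1, 2 or 3. Without the enzalutamide library 1, 3 or 4 they numbered 180, 175 and 112. Leaving out numbers 1 to 4 in turn gave 477, 80, 51 and 35. Each of these fits tested 16775 to 17433 genes. The median change over the 44 stayed negative, between -0.38 and -0.17, when any library was left out.

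**Figure D3:**
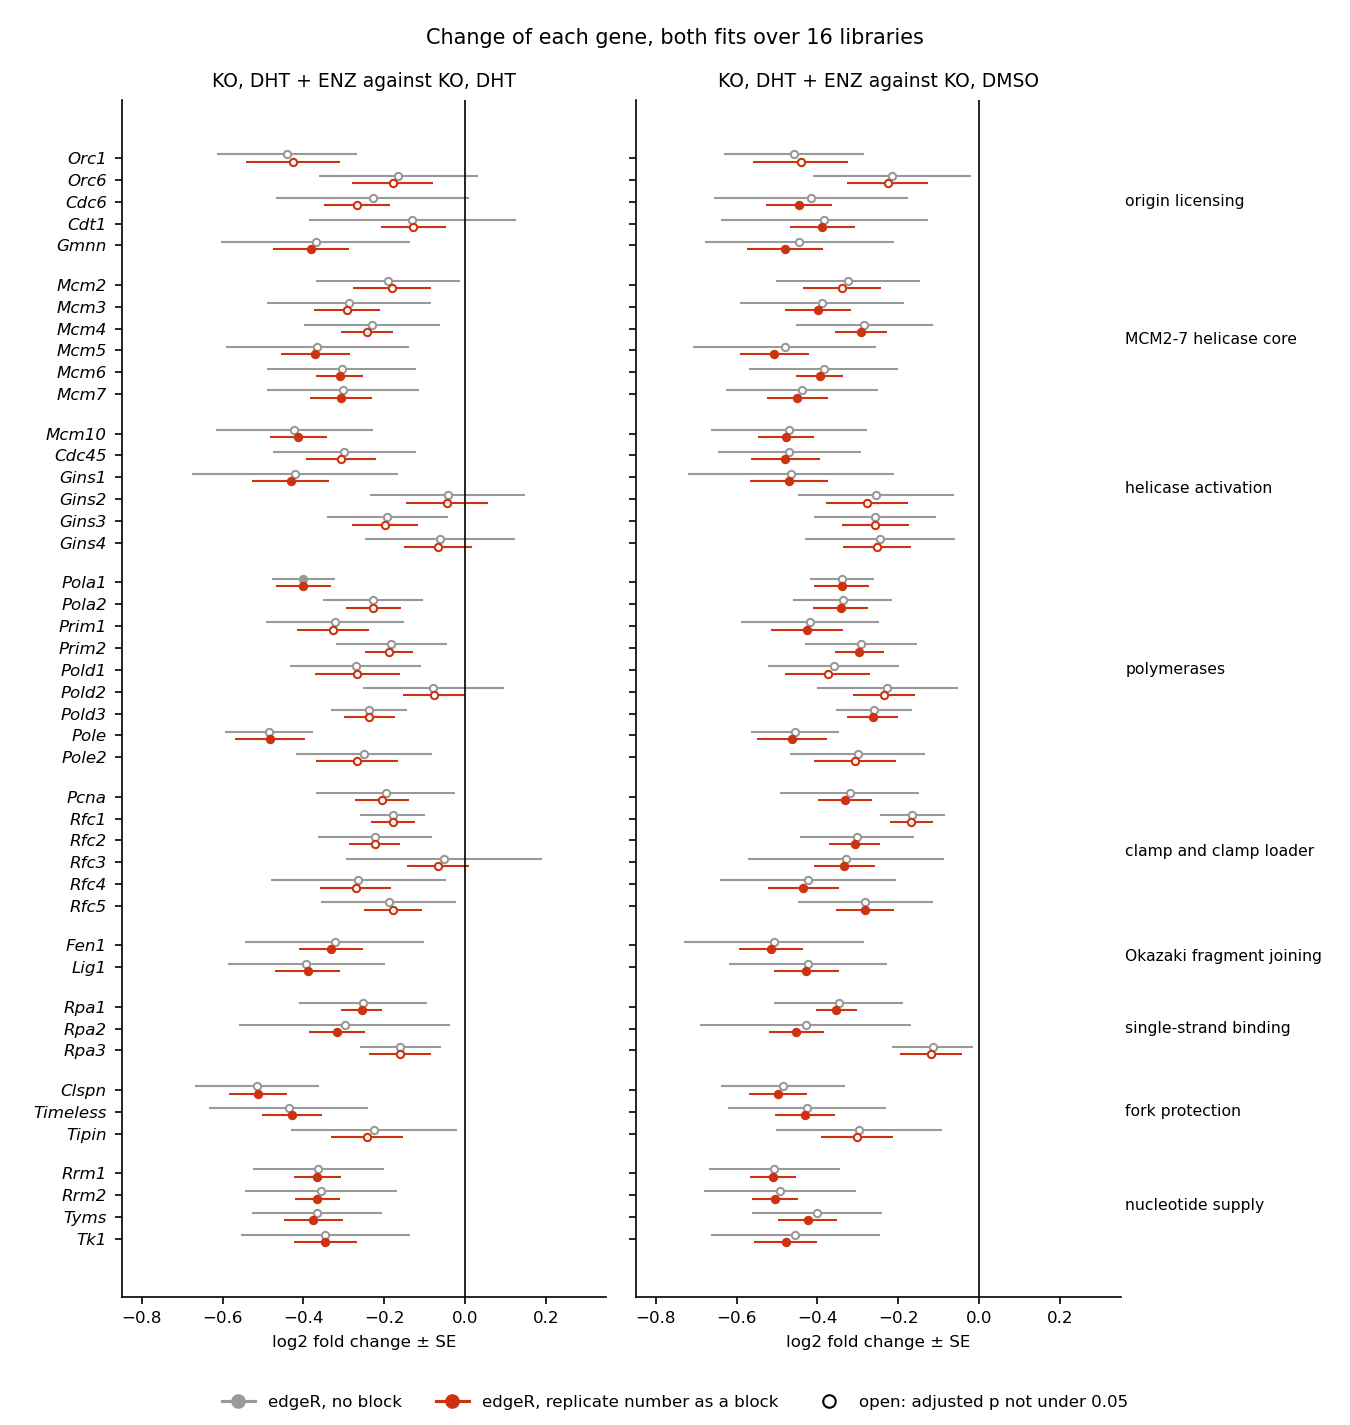
Log2 fold change ± SE (horizontal axis) of the 44 genes by step, for DHT plus enzalutamide against DHT (left) and against DMSO (right), in KO cells; grey is edgeR without a block, red with the replicate number as a block, and filled points had an adjusted p under 0.05. All points lie left of 0, with 18 red points filled on the left and 32 on the right.

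In origin licensing, 1 of 5 genes fell against DHT with the block. Differences between steps in the number of calls were not tested. Orc1 measured 6.04, 7.10, 6.75 and 6.28 CPM in WT libraries 1 to 4, 5.87, 7.59, 9.84 and 6.38 in KO with DMSO, 5.47, 9.12, 7.83 and 6.91 with DHT, and 5.04, 5.95, 5.69 and 4.94 with DHT and enzalutamide. The enzalutamide libraries were the lowest of their number in 4 of 4 numbers, but the group overlapped with DHT through the DHT library 1. The log2 fold change against DHT was -0.44 ± 0.17 (SE), with an adjusted p of 0.55 in edgeR and 0.062 with the block. Gmnn encodes geminin, which holds Cdt1 inactive after licensing. It measured 19.9, 26.6, 31.4 and 17.1 CPM with DHT and 12.5, 21.6, 25.3 and 14.2 with enzalutamide added. Gmnn was lower in 4 of 4 pairs, although the groups overlapped, and it fell by 0.38 ± 0.09 on the log2 scale with the block (edgeR adjusted p = 0.039). Cdc6 measured 28.2, 43.7, 41.3 and 30.1 CPM with DHT against 20.7, 40.4, 39.7 and 21.6, a difference carried by numbers 1 and 4, and did not pass (blocked edgeR adjusted p = 0.10). Cdt1, which brings the ring to origins, had the smallest difference of the step at -0.13 ± 0.26, and Orc6 was at -0.16 ± 0.20.

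The MCM2-7 ring, which unwinds the template, moved as a unit in direction and less evenly in size. All 6 genes were lower in 4 of 4 pairs, and Mcm5, Mcm6 and Mcm7 fell with the block. Mcm6 measured 146, 196, 222 and 159.7 CPM in WT, 166, 223, 233 and 169 in KO with DMSO, 159, 215, 224 and 151 with DHT, and 121, 187, 175 and 122 with enzalutamide. Within each number the enzalutamide library was the lowest of the 4, while the groups overlapped because numbers 2 and 3 were high throughout. Its change against DHT was -0.30 ± 0.18 without the block and -0.31 ± 0.06 with it (edgeR adjusted p 0.91 and 0.0093). Mcm5 measured 111, 179, 179.7 and 106 CPM with DHT and 82.1, 141, 141 and 82.4 with enzalutamide, and fell by 0.37 ± 0.09 with the block (edgeR adjusted p = 0.029). Mcm7 measured 152, 206, 224 and 142 CPM with DHT and 114, 176, 180.3 and 117 with enzalutamide (blocked edgeR adjusted p = 0.040). The other three differed by -0.29 for Mcm3, -0.23 for Mcm4 and -0.19 for Mcm2, the smallest of the ring, and did not pass (blocked adjusted p 0.066, 0.052 and 0.39).

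Helicase activation split within the step. Mcm10 and Gins1 fell with the block, while Gins2 and Gins4, partners of Gins1 in the same complex, differed by -0.04 ± 0.19 and -0.06 ± 0.18. Mcm10, which helps to start the loaded helicase, measured 49.9, 59.7, 63.5 and 45.7 CPM in WT, 45.8, 58.9, 69.2 and 49.0 in KO with DMSO, 43.6, 62.1, 69.8 and 40.2 with DHT, and 32.3, 46.1, 49.5 and 33.0 with enzalutamide. Every enzalutamide library was the lowest of its number, and the groups overlapped between numbers. It fell by 0.41 ± 0.07 on the log2 scale with the block (edgeR adjusted p = 0.0054). Gins1 measured 11.5, 15.4, 19.8 and 10.6 CPM with DHT and 8.03, 12.9, 14.4 and 7.45 with enzalutamide, and fell by 0.43 ± 0.10 with the block (edgeR adjusted p = 0.023). Cdc45, the helicase cofactor, measured 36.2, 49.1, 44.4 and 31.2 CPM against 26.5, 40.3, 38.6 and 25.4, lower in 4 of 4 pairs, and did not pass (blocked edgeR adjusted p = 0.067). Gins3 was at -0.19 ± 0.15. The Gins2 and Gins1 changes were not tested against each other.

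All 9 polymerase genes were lower than with DHT in 4 of 4 pairs, and Pola1 and Pole fell with the block. Both varied little within groups, with an SD of 0.09 for Pola1 and 0.15 for Pole on the log2 scale. Their groups did not overlap against DHT. These 2 of the 44 members are a share near the 2.97% of all genes that were lower without overlap. Pola1 measured 64.8, 78.6, 71.7 and 80.5 CPM in WT, 79.2, 72.7, 80.3 and 77.7 in KO with DMSO, 78.3, 81.1, 82.5 and 81.5 with DHT, and 57.8, 60.6, 66.5 and 60.2 with enzalutamide. The highest enzalutamide library lay below the lowest KO library of the other treatments, so the groups did not overlap. The change against DHT was -0.40 ± 0.08, or 24.2% lower (edgeR adjusted p 0.044, and 0.0053 with the block). Pole, the catalytic subunit of the leading-strand polymerase epsilon, measured 67.3, 64.7, 58.4 and 58.9 CPM in WT, 58.5, 62.4, 61.0 and 59.9 in KO with DMSO, 51.9, 70.6, 69.4 and 55.0 with DHT, and 41.0, 48.4, 48.7 and 38.2 with enzalutamide. No enzalutamide library reached any library of the other groups. Its change was -0.49 ± 0.11 (edgeR adjusted p 0.084, and 0.0075 with the block).

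Other polymerase subunits moved less. Pold3 measured 40.3, 43.8, 47.2 and 36.1 CPM with DHT and 33.6, 34.9, 40.1 and 33.3 with enzalutamide, a difference of -0.24 ± 0.09 (blocked edgeR adjusted p = 0.054). Prim1 and Prim2, the primase pair, were at -0.32 ± 0.17 and -0.18 ± 0.14, the alpha subunit Pola2 at -0.23 ± 0.12, and the delta catalytic subunit Pold1 at -0.27 ± 0.16. Pole2 was at -0.25 ± 0.17. Pold2, a further delta subunit, had the smallest difference of the step at -0.08 ± 0.17. None of these 7 passed in either fit.

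The clamp and clamp loader genes were the only step with no call against DHT in either fit, although 5 of 6 were lower in 4 of 4 pairs. Rfc1, the large subunit of the loader that opens the Pcna ring, measured 99.6, 112, 109.8 and 106 CPM in WT, 112, 115, 117 and 107 in KO with DMSO, 104, 115, 127 and 110.2 with DHT, and 95.0, 103, 110.5 and 94.0 with enzalutamide. It was lower than DHT in 4 of 4 pairs by 0.13 to 0.23 on the log2 scale, with overlapping groups (change -0.18 ± 0.08, blocked edgeR adjusted p = 0.093). Per transcript length, Rfc1 was at 35.9, 35.9, 44.1 and 41.7 TPM with DHT. With enzalutamide it was at 36.8, 34.6, 37.4 and 37.3 TPM, so number 1 was not lower by that measure. Rfc2 measured 78.1, 84.9, 102 and 70.1 CPM with DHT and 60.9, 79.5, 84.8 and 61.8 with enzalutamide (change -0.22 ± 0.14). Rfc4 measured 30.9, 37.8, 44.04 and 27.9 CPM with DHT and 23.4, 34.2, 36.1 and 23.4 with enzalutamide (change -0.26 ± 0.22). Pcna differed by -0.20 ± 0.17 and Rfc5 by -0.19 ± 0.17. Rfc3 had the smallest difference at -0.05 ± 0.24 and was higher with enzalutamide in pair 3.

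The genes that finish lagging-strand fragments both fell with the block. Lig1, the ligase that seals them, measured 127, 126, 150.0 and 107 CPM in WT, 105, 141, 161 and 106 in KO with DMSO, 110.0, 137, 163 and 92.9 with DHT, and 76.6, 115, 117 and 75.5 with enzalutamide. The enzalutamide library was the lowest of its number in each case, with overlap between numbers. Lig1 fell by 0.39 ± 0.08 on the log2 scale with the block (edgeR adjusted p 0.75 without it and 0.016 with it). Fen1, the nuclease that trims the fragment ends, measured 62.3, 90.0, 90.6 and 56.1 CPM with DHT and 44.7, 75.1, 73.6 and 45.6 with enzalutamide, and fell by 0.33 ± 0.08 with the block (edgeR adjusted p = 0.033).

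Of the 3 subunits of the single-strand binding complex, which coats unwound DNA, Rpa1 and Rpa2 fell with the block. Rpa1 measured 168, 217, 230.3 and 164 CPM with DHT and 135, 186, 195 and 139 with enzalutamide. The pairs were close in size, from -0.32 to -0.22 on the log2 scale, and the blocked change was -0.26 ± 0.05 (edgeR adjusted p = 0.013). Rpa2 measured 57.6, 80.4, 93.9 and 52.0 CPM with DHT and 42.7, 76.1, 73.0 and 39.1 with enzalutamide, with pair 2 the smallest at -0.08 (blocked edgeR adjusted p = 0.020). Rpa3, the small subunit, measured 17.98, 18.37, 19.12 and 18.47 CPM in WT, 19.7, 21.4, 19.2 and 18.0 in KO with DMSO, 20.7, 20.6, 22.1 and 17.3 with DHT, and 16.8, 18.4, 20.8 and 16.2 with enzalutamide. Its change of -0.16 ± 0.10 was the smallest of the complex and did not pass (blocked edgeR adjusted p = 0.32).

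Fork protection gave the largest change of any member. Clspn encodes claspin, which links a stalled fork to the checkpoint kinase. It measured 61.8, 67.5, 68.5 and 55.5 CPM in WT, 57.5, 71.9, 73.0 and 59.7 in KO with DMSO, 57.7, 75.9, 81.3 and 52.5 with DHT, and 39.2, 51.4, 57.3 and 39.3 with enzalutamide. Only the enzalutamide library 3 came within the range of the DHT group. The change was -0.51 ± 0.15, or 30.0% lower (edgeR adjusted p 0.28, and 0.0018 with the block). Timeless, which keeps helicase and polymerase together, measured 39.9, 59.2, 62.3 and 38.7 CPM with DHT and 32.1, 42.1, 44.7 and 28.9 with enzalutamide, and fell by 0.43 ± 0.07 with the block (edgeR adjusted p = 0.0057). Per transcript length, Timeless was at 25.3, 28.0, 25.8 and 26.8 TPM with DHT. With enzalutamide it was at 26.4, 17.5, 17.0 and 24.9 TPM, so number 1 was not lower. Coding transcripts held 78.4% of the Timeless counts with DHT and 71.4% with enzalutamide. Its partner Tipin measured 62.4, 66.0, 81.6 and 50.6 CPM with DHT and 42.0, 67.6, 69.5 and 43.9 with enzalutamide. By CPM, Tipin was higher in pair 2 and lower in the other pairs, and did not pass (blocked edgeR adjusted p = 0.17). Per transcript length, Tipin was at 162, 142, 147 and 124 TPM with DHT. With enzalutamide it was at 96.3, 123, 151 and 93.8 TPM, so by TPM pair 3 was the higher one and pair 2 was lower.

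In nucleotide supply, as in fragment joining, every gene fell with the block (4 of 4). Rrm1 and Rrm2, the subunits of ribonucleotide reductase, Tyms, which makes thymidylate, and Tk1, which salvages thymidine, changed by -0.37 to -0.35 on the log2 scale without the block, the narrowest range of any step with more than 3 genes. Tyms measured 48.5, 54.4, 62.7 and 44.6 CPM in WT, 49.5, 54.4, 59.6 and 48.7 in KO with DMSO, 42.7, 57.3, 62.3 and 45.1 with DHT, and 31.8, 45.0, 50.9 and 33.0 with enzalutamide. It was the lowest of its number with enzalutamide in each case, and the groups overlapped through numbers 2 and 3. Rrm1 measured 264, 336, 355 and 249.7 CPM with DHT and 200.4, 268, 275 and 193 with enzalutamide, with all pairs between -0.40 and -0.33 on the log2 scale. Rrm2 measured 199, 280.2, 284 and 204 CPM with DHT and 155, 226, 229 and 146 with enzalutamide. With the block, the edgeR adjusted p was 0.0034 for Rrm1, 0.0030 for Rrm2, 0.011 for Tyms and 0.026 for Tk1. Without it, the smallest of the 4 was 0.66.

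**Figure D4:**
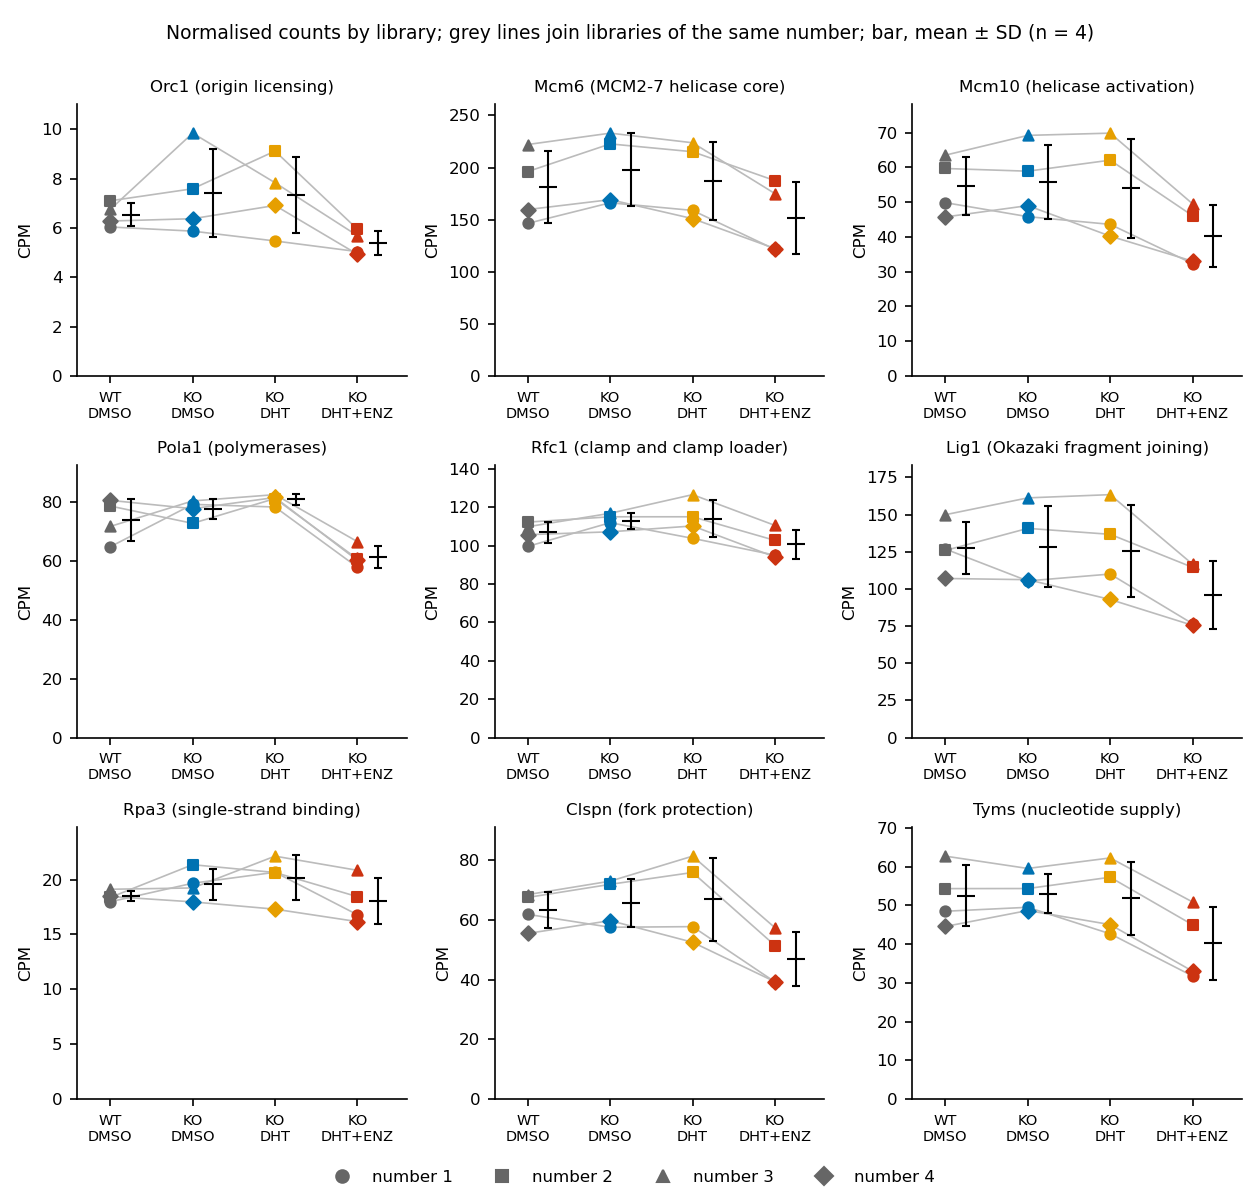
Normalised counts (CPM, linear axis from 0) in the 16 libraries for the member of each step with the smallest p against DHT; marker shape gives the replicate number, grey lines join libraries of a number, and black bars are the mean ± SD of 4 libraries. Pola1 shows 4 enzalutamide libraries between 57.8 and 66.5 CPM below every other KO library, while Mcm6, Mcm10, Lig1 and Tyms drop along each grey line with numbers 2 and 3 above 1 and 4.

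The comparison of KO cells given DHT with enzalutamide against KO cells given DMSO uses the same enzalutamide libraries with another control, so it is no independent repeat. All 44 members again had lower means, by a median of -0.38 on the log2 scale (0.01 over all genes tested), and 43 of 44 were lower in 4 of 4 pairs against 15.6% of all genes. In edgeR 0 members were called without the block, where 0.2% of genes were called lower. In that fit 22 of the 44 had an unadjusted p under 0.05, as had 978 of all 16971 genes in either direction. DESeq2 called 2 members, where it called 131 of all genes lower. With the block 32 fell and none rose, where 2.09% of genes were called lower. The groups did not overlap for 5 members, Pola1, Pold3, Pole, Clspn and Rrm1, against 3.18% of genes.

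By step, the blocked calls against DMSO were 3 of 5 in licensing (Cdc6, Cdt1, Gmnn), 5 of 6 in the ring (all but Mcm2) and 3 of 6 in helicase activation (Mcm10, Cdc45, Gins1). They were 6 of 9 among polymerases (Pola1, Pola2, Prim1, Prim2, Pold3, Pole), 5 of 6 in the clamp and its loader (all but Rfc1), 2 of 2 in fragment joining and 2 of 3 in single-strand binding. Fork protection gave 2 of 3 (Clspn, Timeless) and nucleotide supply 4 of 4. Rrm1 had measured 288, 345, 408 and 289.6 CPM with DMSO, and each of the 4 enzalutamide libraries lay below these, from 193 to 275 CPM. It fell by 0.51 ± 0.06 on the log2 scale with the block (29.6% lower, edgeR adjusted p = 0.00035). Fen1, with 68.4, 97.1, 108 and 65.9 CPM with DMSO, changed by the same size, -0.51 ± 0.08 (blocked edgeR adjusted p = 0.0021). Rpa3 differed least, at -0.11 ± 0.10.

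The count of 32 became 19 or 18 without the enzalutamide library 1 or 4, and 21 or 19 without KO DMSO library 3 or 4. Without all libraries of number 3 it was 14, and without those of number 4 it was 2. Over all genes, 354 were called lower with the block. They became 193 or 188 without the enzalutamide library 1 or 4, and 203 or 185 without KO DMSO library 3 or 4. Without all libraries of number 3 or 4 they became 126 or 50. Without WT library 1, edgeR without the block called 1 member, and 78 of 17230 genes lower. The median over the 44 stayed between -0.48 and -0.28.

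**Figure D5:**
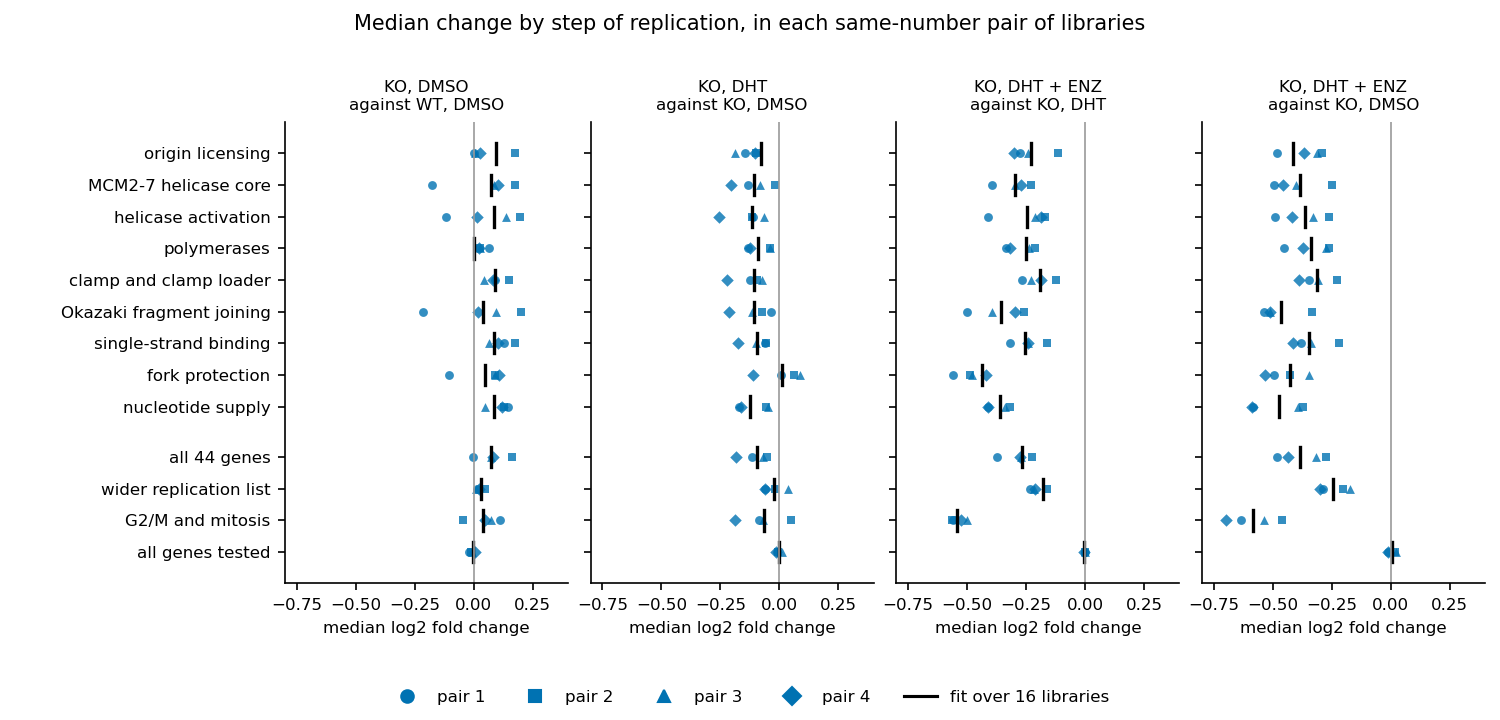
Median log2 fold change (horizontal axis) over the genes of each step, all 44 genes, 2 further lists and all genes tested, in the 4 comparisons; symbols are the same-number pairs 1 to 4 and black bars the fit over 16 libraries. Step medians are negative in all 4 pairs in the enzalutamide panels, at a median of -0.27 and -0.38 over the 44 genes, and the fitted bars of the steps lie between 0.00 and 0.10 in the WT panel, where single pairs reach -0.21 and 0.20.

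DHT against DMSO in KO cells asked what the androgen did alone. No member was called in either edgeR fit, where 0% of all genes were called in either direction, and 0 of the 44 had an unadjusted p under 0.05 without the block. The median change was -0.09 on the log2 scale, 38 of 44 members were negative, and 20 were lower in 4 of 4 pairs against 13.2% of all genes, with 0 higher in 4 of 4 pairs against 11.3%. The largest differences were Rfc3 at -0.28 ± 0.24 and Cdt1 at -0.25 ± 0.26. Cdt1 had 29.1, 44.8, 44.4 and 26.0 CPM with DMSO and 23.1, 37.6, 38.9 and 21.5 with DHT, lower in each pair. Its blocked change was -0.26 ± 0.08 (edgeR adjusted p = 0.61). Pola1, Pole, Clspn and Timeless, among the larger changes with enzalutamide, were at 0.06, 0.03, 0.03 and 0.01. Leaving out a library moved the median between -0.20 (without KO DHT library 3) and -0.0036 (without KO DMSO library 3) without the block, and between -0.12 and -0.077 with it. Fold changes in this comparison had a rank correlation with transcript length, over the 9747 genes of at least 10 CPM, of 0.10, 0.66, 0.53 and 0.41 in pairs 1 to 4. With an offset for each library's length trend, the median over the members was -0.047 and 32 of 44 were negative (-0.049 and 35 with the block).

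KO against WT cells, both with DMSO, asked what loss of Chd1 did without added androgen. No member was called in either edgeR fit, where 0% of all genes were called, and 0 of 44 had an unadjusted p under 0.05 without the block. The median change was 0.07 on the log2 scale and 39 of 44 were positive, from Pold1 at -0.12 ± 0.16 to Rfc3 at 0.22 ± 0.24. In 4 of 4 pairs, 9 members were higher, against 6.24% of all genes, and 0 were lower, against 6.57%. Rrm1 had 236, 305, 349 and 268 CPM in WT, lower than its KO DMSO library in each number, and a blocked change of 0.20 ± 0.06 (edgeR adjusted p = 0.51). In pair 1, which holds the shallow WT library, the median was 0.00 and 22 of 44 members were lower. The overall median lay between -0.018 (without KO DMSO library 3) and 0.18 (without WT library 3) when a library was left out, so its sign was not kept without the block. With the block it stayed positive in every such fit, between 0.028 and 0.10.

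A wider list of 48 other replication and nucleotide genes moved less as a list. With the block, 1.92% of all genes were called lower against DHT and 2.09% against DMSO, and without it 0.189% and 0.2%. Against DHT the median of the list was -0.18 on the log2 scale, and 16 of 48 fell with the block, 1 of them without it. Against DMSO the median was -0.25 and 18 fell with the block, again 1 without it. Dna2, a nuclease and helicase of fragment processing, was that gene in both, at -0.43 ± 0.08 and -0.45 ± 0.08 (edgeR adjusted p 0.041 and 0.043). Nasp and Asf1b, which handle new histones, and Dut, which removes dUTP, were among those that also fell with the block in both. Rrm2b and Tk2, which supply nucleotides outside S phase, did not pass in either fit. Rrm2b, the alternative reductase subunit, was at 0.08 ± 0.19 against DHT beside Rrm2 at -0.36 ± 0.19, and mitochondrial Tk2 was at 0.07 ± 0.10 beside Tk1 at -0.35 ± 0.21. The differences between these partners were not tested.

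A list of 23 genes of G2 and mitosis, phases that follow replication, changed by a median of -0.54 against DHT and -0.58 against DMSO on the log2 scale. In edgeR 8 of 23 fell against DHT without the block and 22 with it, and against DMSO 11 and 22. The shares of all genes called lower were 0.189% and 1.92% against DHT, and 0.2% and 2.09% against DMSO. Mki67, a mark of cycling cells, was at -0.69 ± 0.10 against DHT (edgeR adjusted p = 0.0075) and Top2a, which untangles copied DNA, at -0.64 ± 0.10 (edgeR adjusted p = 0.011). The largest change among the 44 members, Clspn at -0.51, was smaller than the median of this list. Its promoters also differed from those of the members: 15.8% of 19 genes with a listed window held an E2F word and 73.7% held TTTGAA. The box CCAAT occurred in 84.2% of those 19 genes, and in 62.9% of the member genes.

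Members with an E2F word did not stand far from those without. The 23 with one had a median of -0.30 against DHT with 10 called with the block, and the 12 without one had -0.24 with 5 called. Against DMSO the medians were -0.42 with 17 of 23 called, and -0.34 with 9 of 12. Pola1 and Clspn hold such a word and Timeless, Mcm10 and Tk1, which fell too, hold none in the listed window.

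Library properties that moved beside these results were measured. The median length of the members was 2101 bases, against 2676 for genes of at least 10 CPM. Members ran from 670 to 5276 bases, and some were longer than that second median, such as Pola1 at 5276 and Pole at 4201. Over those 9747 genes, the rank correlation of fold change with length was 0.20, -0.59, -0.30 and -0.35 in pairs 1 to 4 against DHT, and 0.30, -0.08, 0.16 and 0.05 against DMSO. With an offset for each library's length trend, all 44 members were still lower in both comparisons, by medians of -0.31 and -0.37, and 27 and 32 fell with the block. Of all 16971 genes, 382 and 407 were called lower with that offset and the block. Without the block, no member was called against DHT with that offset, and Pola1 was at -0.34 (edgeR adjusted p = 0.11). Summed marker levels of the enzalutamide and DHT groups overlapped for 5 of the 6 other cell types. Neuronal markers summed to 35.2 to 53.4 TPM with enzalutamide and 32.2 to 55.7 TPM with DHT, astrocyte markers to 109 to 186 TPM and 112 to 181 TPM, and oligodendrocyte precursor markers to 465 to 541 TPM and 442 to 596 TPM. Endothelial markers summed to 1.16 to 1.95 TPM with enzalutamide and 1.26 to 2.51 TPM with DHT, and fibroblast and pericyte markers to 0.27 to 1.10 TPM and 0.28 to 1.17 TPM. Microglial markers did not overlap, at 2.35 to 3.33 TPM with enzalutamide and 3.49 to 4.65 TPM with DHT, with Tmem119 and Aif1 listed at a median of 0 over the 16 libraries. Progenitor markers summed to 5900 to 7298 TPM and 6395 to 7414 TPM. Their part in the results was not tested.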

How the data were processed

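RNA was sequenced from 16 cultures as paired 150 bp reads of polyA RNA, per the labels' protocols. Per the submitters' processing notes, the authors quantified reads with kallisto against GRCm39; versions are not given in the sources used here. The deposited files list expected (estimated) counts, length, effective length and TPM for each transcript, per the file headers. Of 146190 transcripts, 135007 matched GENCODE M21 and carried 98.8 to 99.1% of the counts. Their estimated counts were summed per gene and rounded, and their deposited TPM were summed for levels. kallisto shares reads among similar transcripts by a model, so genes with near-identical copies are less certain.

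The 44 members, their steps and the comparison lists were chosen with earlier results of these data known. edgeR 4.0.16 (R 4.3.3) fitted 16 libraries in 1 model of 4 groups, with TMM scaling, filterByExpr, the quasi-likelihood test and Benjamini-Hochberg adjustment over 16971 genes, called at adjusted p under 0.05. CPM are counts scaled to a fixed sum of the TMM-adjusted library size. Library totals were 20.2 to 36.9 M counts (M, mega), and edgeR put the common spread between libraries (BCV, a coefficient of variation) at 0.21 in the unblocked model, against 0.12 in the blocked. The labels give the replicate number, and deposited files of 1 number share a name prefix. Deviations of same-number libraries from their group means correlated at 0.16 to 0.79 in every pair over 9747 genes, above the minimum of 0.1, so the numbers were taken as pairs. The labels do not say that a number is 1 animal. Without the block, p-values measure the spread between these cultures within groups. With the block, they measure the spread left after the replicate number is taken out.

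Library values are given for the 3 members of each step with the smallest p against DHT (all where a step has 3 or fewer). The member of each step with the smallest change, and other members called, are named. Alternatives were the replicate block, DESeq2 1.42.0, RLE factors, no low-count filter, only the groups compared, a length-trend offset, and each library left out. The fits were also run on simulated counts. These held no effect of the replicate number and larger changes than the members showed, so they could not check the blocked calls made here.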

Additional observations from a re-analysis of the deposited data

How the results depend on the processing

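The counts of calls moved with the replicate block. Against DHT, edgeR called 1 member without the replicate block and 18 with it, and DESeq2 called 2 without and 29 with it. Of 16971 genes, edgeR called 32 and 325 lower, and DESeq2 120 and 473. No member was called with no filter on low counts, with the length-trend offset, or with only the libraries of the groups compared. Those fits called 11, 57 and 38 of all genes lower. With only those groups and the replicate block kept, 28 members were called, where 583 of 15965 genes were called lower. Against DMSO, edgeR called 0 without the replicate block and 32 with it, and DESeq2 called 2 and 37. Over all genes, 34 and 354 were called lower in edgeR, and 131 and 537 in DESeq2. With 1 library left out, the count without the block ran from 0 to 1 in both comparisons with enzalutamide. Of all genes, 0 to 79 were then called lower against DHT and 0 to 78 against DMSO. With the block, leaving out a library or a number gave 1 to 32 against DHT and 2 to 43 against DMSO. Of all genes, 35 to 700 and 50 to 762 were called lower with the block. Over these fits, with and without the block, the median change ran from -0.38 to -0.17 against DHT, from -0.48 to -0.28 against DMSO, from -0.20 to -0.0036 for DHT against DMSO, and from -0.018 to 0.18 for KO against WT. Over all genes, the block moved the calls from 45 to 591 against DHT and from 43 to 499 against DMSO, and left 0 in the other comparisons, where DESeq2 with the block called 9 genes for KO against WT and none for DHT against DMSO. Of 520 values for the 26 members given by library, 488 kept their direction and side of the threshold. Of the rest, 17 newly passed it (16 of them with the block) and 15, all Pola1, no longer did, and none reversed. These values were set against the fit without the block, in which only Pola1 was called, so most of the 488 were uncalled members that stayed uncalled. Libraries were left out here without the block, so these values do not measure how stable the blocked call of each member was. The cause was not tested.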
